A study of Rattus norvegicus with 28 samples.

Results

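Chemokines and their receptors were described in whole kidneys of female rats, as 45 genes of the 14217 that the platform annotation names with 1 symbol per probe set. A gene was a member if its symbol was Ccl, Cxcl, Cx3cl, Xcl, Ccr, Cxcr, Cx3cr or Ackr followed by a number. The 45 genes had 58 probe sets, and each gene is given by its probe set of highest mean over all arrays. There were 29 ligands and 16 receptors. Expression was measured on 28 Affymetrix rat arrays, 7 in each of 4 groups. The groups were SBH/y rats after right uninephrectomy, the surgical removal of a kidney, SBH/y rats with 2 kidneys after a sham operation, SBN/y rats after right uninephrectomy and SBN/y rats with 2 kidneys after a sham operation. All rats were 5 months old at sampling, 4 months after the operation, and ate chow without restriction. Both are inbred lines of the Sabra rat, SBH/y being prone and SBN/y resistant to hypertension on a high-salt diet, and the series concerns protein loss in the urine. The labels number the arrays of a group but do not say that each came from a separate animal, so p-values measure the spread between these arrays, and they do not say which kidney of the sham-operated rats was used.

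Chemokines are small secreted proteins that direct the movement of leukocytes along concentration gradients. They are classed by the spacing of their first cysteines into CC, CXC, CX3C and C families, and they act through receptors coupled to inhibitory G proteins. Atypical receptors of the Ackr group bind chemokines without signalling through G proteins and shape their gradients. In the kidney, tubular epithelium, endothelium and resident macrophages can all release chemokines. In injured kidneys they draw monocytes, T cells and neutrophils into the tissue.

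The array values were on 1 scale, with array medians between 5.72 and 5.77 log2 units and correlations between arrays of 0.985 to 0.997. Of 14 kidney identity markers, 13 were measured and 0 of them lay below the lowest array median in all 4 groups, so the tissue label was borne out by its markers. Detection calls were not used here, and a gene whose mean lay below that median of 5.72 is called dim. Of the 45 members, 27 were dim in all 4 groups. These were Ccl3, Ccl7, Ccl9, Ccl11, Ccl17, Ccl20, Ccl22, Ccl24, Ccl28, Cxcl1, Cxcl2, Cxcl6, Cxcl9, Xcl1, Ccr1, Ccr2, Ccr3, Ccr4, Ccr6, Cx3cr1, Cxcr1, Cxcr2, Cxcr3, Cxcr4, Ackr1, Ackr2 and Ackr4. Ccr10 was dim in 3 groups, with a mean of 5.74 in SBN/y with 2 kidneys. Among receptors 13 of 16 were dim in all groups, and among ligands 14 of 29. A missing call for a dim gene does not show that its RNA was unchanged. In whole kidney, fewer cells of a type and less RNA per cell cannot be told apart. Of 8 adipose markers measured, 1 was higher and 2 lower in SBH/y than SBN/y with 2 kidneys (limma adjusted p under 0.05). There 7 of the 8 had an unadjusted p under 0.05. Between the uninephrectomized groups 2 were higher and 0 lower. Ucp1, named after its values were seen, had means of 6.54 and 5.48 in SBH/y with 1 and 2 kidneys. In SBN/y it had 6.96 and 8.23. The part of fat in the values of the members was not tested.

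The other 17 members lay above that median in every group. Cxcl12, the ligand of Cxcr4 that keeps blood stem cells in the marrow, had a mean of 10.37 log2 units over all arrays. Cxcl16, a chemokine that is held on the cell membrane and attracts T cells, had 9.88, and Cx3cl1 or fractalkine, which captures monocytes on endothelium, had 8.61. Ackr3, the scavenging receptor of Cxcl12, had 8.24. The others were Cxcl11, Ccl21, Cxcr5, Ccl19, Ccl6, Ccl2, Cxcl10, Ccl5, Cxcl13, Cxcl14, Ccl27, Ccl4 and Cxcl3, with means between 6.11 for Cxcl3 and 8.05 for Cxcl11. Only this 1 of the 5 probe sets of Cxcl3 had a mean above that median, the others having 2.60 to 5.42. These values come from different probes and are not amounts of RNA to be ranked.

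The first comparison asked what loss of a kidney did to these genes in each strain. In SBH/y rats 11 of 45 members passed the test after uninephrectomy, 6 higher and 5 lower. In SBN/y rats 1 of 45 passed, Ccl28, which was higher, and this call was lost when 1 of 8 arrays was left out. Throughout, a gene was called when its limma adjusted p, by the Benjamini-Hochberg method over 31042 probe sets, was under 0.05. By this rule 8.24% of all probe sets were called in SBH/y, 3.33% higher and 4.91% lower, and 0.464% in SBN/y, 0.222% of them higher and 0.242% lower. The members called made up 24.4% of the list in SBH/y, with 13.3% higher and 11.1% lower, and 2.22% in SBN/y. The median log2 change over the members was 0.08 in SBH/y, against 0.01 over all probe sets, and 0.00 for both in SBN/y. The 5 lower members in SBH/y became 1 to 3 without uninephrectomized replicate 4, 5, 6 or 7 or replicate 3, 4, 5 or 6 with 2 kidneys. Of the ligands 8 of 29 were called in SBH/y, and of the receptors 3 of 16. The test of the difference between the strains' changes called 4 members, Ccl19, Cxcl10, Cxcl16 and Ccl28, or 8.89% of the list against 1.41% of all probe sets. Of these, 3 had a more positive change in SBH/y (0.596% of all probe sets) and 1 a more negative one (0.818%). Without uninephrectomized SBH/y replicate 2 these counts were 5 and 3. The comparisons share arrays, since the test of the difference uses the arrays of both uninephrectomy effects.

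**Figure D1:**
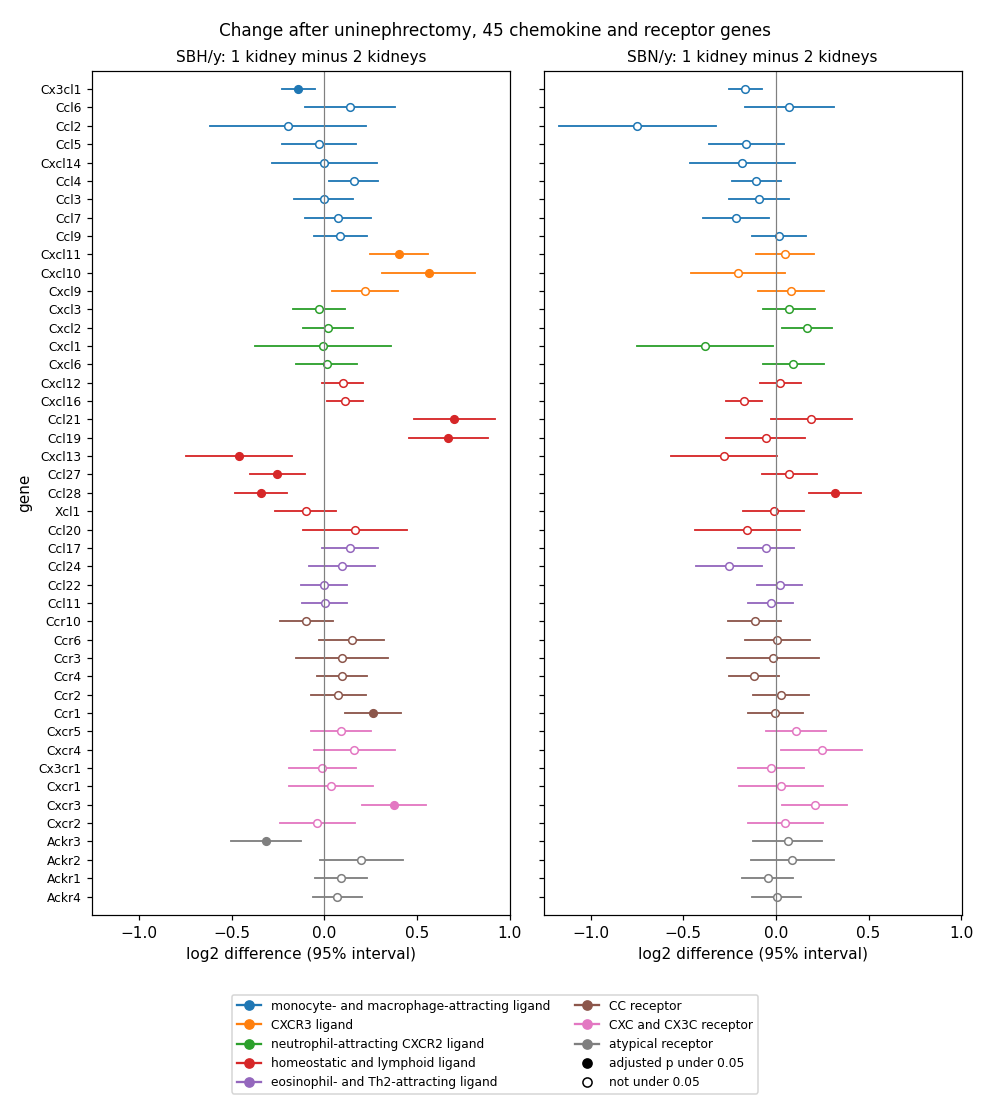
Log2 change after uninephrectomy for the 45 genes, in SBH/y rats on the left and SBN/y rats on the right, with 95% intervals from limma. Genes run down the page by role, coloured by role, and filled points have an adjusted p under 0.05. There are 11 filled points in SBH/y and 1, Ccl28, in SBN/y.

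The ligands of Cxcr3, the receptor of activated T cells and natural killer cells, are genes induced by interferon. Cxcl10 had log2 values of 6.73, 7.35 and 7.61 (lowest, median and highest of 7 arrays) in uninephrectomized SBH/y rats, against 6.55, 6.78 and 6.94 in SBH/y rats with 2 kidneys. In SBN/y rats the values were 5.94, 6.28 and 6.88 after uninephrectomy, against 6.23, 6.51 and 6.91 with 2 kidneys. All but 1 of the uninephrectomized SBH/y arrays lay above every other array. Cxcl10 rose by 0.56 ± 0.12 log2 units (SE), or 1.48-fold, in SBH/y (limma adjusted p = 0.00333). In SBN/y its change was -0.21 ± 0.12 (adjusted p = 0.704). The difference between these changes was 0.77 ± 0.17 (adjusted p = 0.0193).

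Cxcl11 had 8.41, 8.74 and 8.91 in uninephrectomized SBH/y rats, against 8.07, 8.22 and 8.53 with 2 kidneys. In SBN/y rats it had 7.55, 7.63 and 7.88 after uninephrectomy, against 7.46, 7.57 and 7.83 with 2 kidneys. The SBH/y groups overlapped each other, but neither overlapped either SBN/y group. Cxcl11 rose by 0.40 ± 0.08 in SBH/y (limma adjusted p = 0.000742), and the change in SBN/y was 0.05 ± 0.08 (adjusted p = 0.947). The difference between these changes was 0.36 ± 0.11 and did not pass (adjusted p = 0.0963), though it did without uninephrectomized SBH/y replicate 2, at 0.39 (adjusted p = 0.0397), or replicate 4, at 0.40 (adjusted p = 0.0485). Cxcl9, the third ligand and dim in all groups, had a difference of 0.22 ± 0.09 in SBH/y (limma adjusted p = 0.124) and of 0.08 ± 0.09 in SBN/y (adjusted p = 0.899). Without uninephrectomized SBH/y replicate 2 the SBH/y value was 0.27 and passed (adjusted p = 0.034).

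The receptor itself, Cxcr3, was dim, with 4.54, 4.68 and 5.04 in uninephrectomized SBH/y rats, against 4.21, 4.29 and 4.64 with 2 kidneys. It rose by 0.38 ± 0.08 in SBH/y (limma adjusted p = 0.00437), with the groups overlapping at the edges. In SBN/y it had 4.53, 4.77 and 5.06 after uninephrectomy, against 4.37, 4.55 and 4.72 with 2 kidneys, a difference of 0.21 ± 0.08 that did not pass (adjusted p = 0.419). The test of the strains' changes did not pass, with a difference of 0.17 and a 95% interval of -0.08 to 0.41. Of 16 T cell markers measured, 6 were higher and 0 lower in SBH/y after uninephrectomy. In SBN/y limma called 0 of the 16, and 0 had an unadjusted p under 0.05. Cd3e, a chain of the T cell receptor complex, rose by 0.54 ± 0.07 and Cd3g by 0.52 ± 0.08. Of the 16 markers 12 were dim in all groups. The mean of the list lay between 4.70 and 5.03 in uninephrectomized SBH/y arrays and between 4.61 and 4.85 in SBH/y arrays with 2 kidneys. Of 9 natural killer cell markers limma called 0 in SBH/y, with 1 at an unadjusted p under 0.05. The part of these cells in the Cxcr3 values was not tested.

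**Figure D2:**
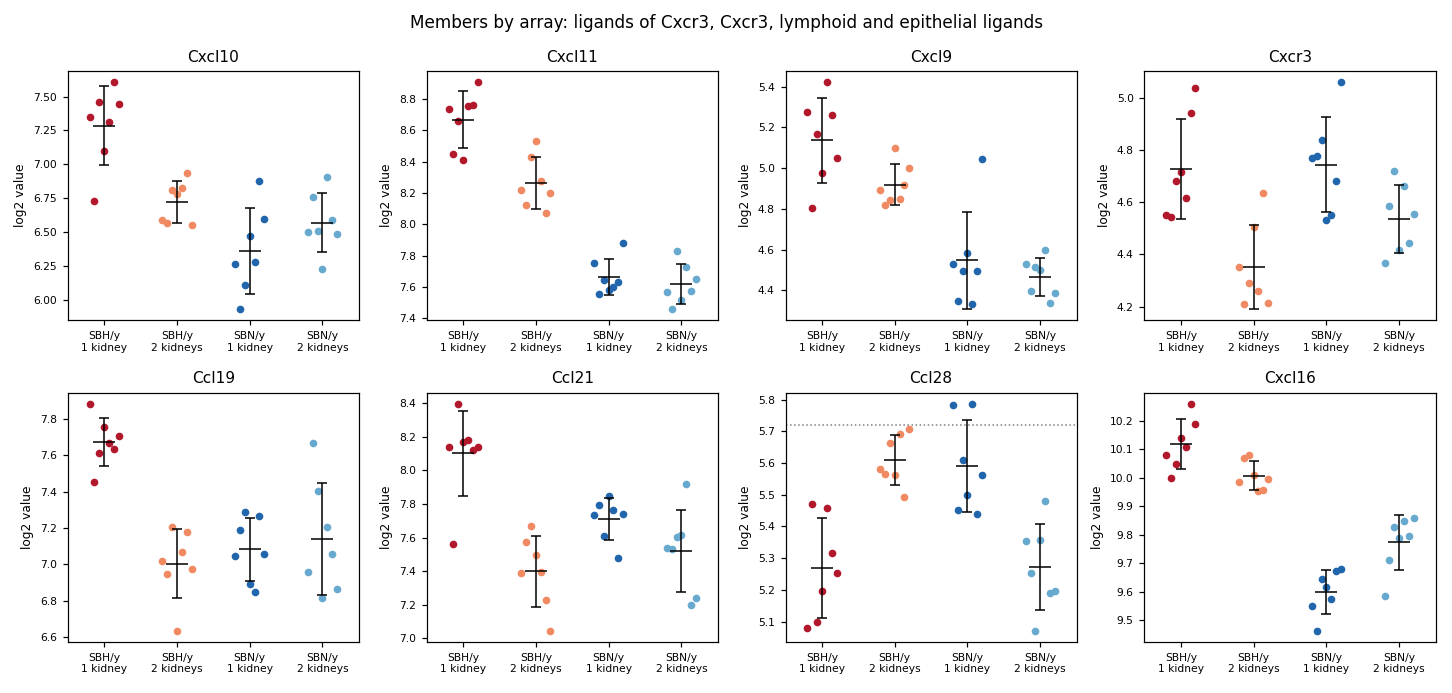
Log2 values of 8 genes on each array (coloured points, 7 per group), with the group mean and SD in black and the lowest array median of 5.72 as a dotted line where it falls in range. Cxcl10, Cxcl11, Ccl19 and Ccl21 are highest in uninephrectomized SBH/y rats, while Ccl28 is low in uninephrectomized SBH/y rats and in SBN/y rats with 2 kidneys.

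The 250 bases before the start of Cxcl9, Cxcl10, Cxcl11 and Ccl19 are shown because Cxcl10 and Ccl19 were 2 of the 3 ligands with a more positive change in SBH/y, and Cxcl9 and Cxcl11 share the receptor and the genomic neighbourhood of Cxcl10. Sequences are RefSeq's for GRCr8, 5′ to 3′ on the strand of the gene, and 35 of the 45 members matched an entry. Capitals mark matches, on either strand, to the core of the interferon-stimulated response element (GAAANNGAAA) and to the NF-kappa B consensus. The windows are chr14:16006916-16007165 for Cxcl9, chr14:15988816-15989065 for Cxcl10 and chr14:15973478-15973727 for Cxcl11, all on the plus strand, and chr5:61761165-61761414 on the minus strand for Ccl19.
Cxcl9: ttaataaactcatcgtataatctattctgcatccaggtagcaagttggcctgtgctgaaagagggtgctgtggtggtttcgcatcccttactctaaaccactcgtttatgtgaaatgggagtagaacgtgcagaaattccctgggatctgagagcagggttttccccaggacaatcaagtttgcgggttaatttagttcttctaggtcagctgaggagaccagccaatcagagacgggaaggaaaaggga
Cxcl10: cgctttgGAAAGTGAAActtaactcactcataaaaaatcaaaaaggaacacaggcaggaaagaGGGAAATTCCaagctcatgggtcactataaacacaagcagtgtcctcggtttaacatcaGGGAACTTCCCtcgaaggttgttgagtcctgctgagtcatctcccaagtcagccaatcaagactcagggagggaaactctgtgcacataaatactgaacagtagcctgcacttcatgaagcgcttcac
Cxcl11: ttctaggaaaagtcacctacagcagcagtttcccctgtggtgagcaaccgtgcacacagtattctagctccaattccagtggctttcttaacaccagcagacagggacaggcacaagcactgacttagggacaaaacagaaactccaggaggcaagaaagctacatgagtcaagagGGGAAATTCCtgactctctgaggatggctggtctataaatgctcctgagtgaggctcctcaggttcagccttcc
Ccl19: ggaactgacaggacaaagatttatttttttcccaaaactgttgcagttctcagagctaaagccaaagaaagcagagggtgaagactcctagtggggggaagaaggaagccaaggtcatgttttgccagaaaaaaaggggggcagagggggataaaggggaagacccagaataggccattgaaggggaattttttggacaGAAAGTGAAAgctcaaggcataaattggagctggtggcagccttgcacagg
The letters GAAAGTGAAA stand in both Cxcl10, from 243 to 234 bases before the start, and Ccl19, from 51 to 42 bases before it. A match to the core of the interferon element was found in 2 of the 35 member windows, these 2 genes, and in 3.29% of 27457 windows of the same length. Cxcl10 has NF-kappa B matches from 187 to 178 and from 128 to 118 bases before the start, the second on both strands with an overlap, and Cxcl11 has 1 from 74 to 65. Such matches were found in 9 of the 35 windows (Ccl7, Ccl9, Ccl20, Ccr3, Cxcl1, Cxcl2, Cxcl6, Cxcl10 and Cxcl11), against 6.41% of all windows. Of these genes only Cxcl10 and Cxcl11 were called in any comparison, and the others were dim in all groups. The matches are letters only, and the window of Cxcl9 holds neither motif. The window of Cxcl16, the other ligand with a more positive change in SBH/y, is not shown and holds neither motif.

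Ccl19 and Ccl21 are the ligands of Ccr7 that guide T cells and dendritic cells into lymphatic vessels and lymph nodes, and Ccr7 was not analysed here. Ccl19 had 7.45, 7.67 and 7.88 in uninephrectomized SBH/y rats, against 6.63, 7.02 and 7.20 in SBH/y rats with 2 kidneys, with no overlap (1.96% of all probe sets did not overlap in this comparison). In SBN/y rats it had 6.85, 7.06 and 7.29 after uninephrectomy, against 6.82, 7.06 and 7.67 with 2 kidneys, with the same median. Ccl19 rose by 0.67 ± 0.10, or 1.59-fold, in SBH/y (limma adjusted p = 8.43e-05), the change in SBN/y was -0.06 ± 0.10 (adjusted p = 0.958), and the difference between them was 0.73 ± 0.15 (adjusted p = 0.00957).

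Ccl21 had 7.56, 8.14 and 8.40 in uninephrectomized SBH/y rats, against 7.04, 7.39 and 7.67 with 2 kidneys. All but 1 of the uninephrectomized SBH/y arrays lay above every SBH/y array with 2 kidneys. It rose by 0.70 ± 0.11, or 1.63-fold (limma adjusted p = 6.32e-05). In SBN/y the values were 7.48, 7.74 and 7.85 after uninephrectomy, against 7.20, 7.54 and 7.92 with 2 kidneys, a change of 0.19 ± 0.11 (adjusted p = 0.673). The difference of 0.51 ± 0.15 did not pass (adjusted p = 0.0844), though it did without uninephrectomized SBH/y replicate 2, the lowest array of its group, at 0.60 (adjusted p = 0.00817).

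Some markers of cells that make or follow these ligands moved in the same comparison. Of 7 dendritic cell markers measured 5 were higher and 0 lower in SBH/y after uninephrectomy, and in SBN/y limma called 0, with 1 at an unadjusted p under 0.05. Clec10a rose by 0.71 ± 0.09 and Clec9a, a marker of cross-presenting dendritic cells, by 0.55 ± 0.09. The mean of the list lay between 5.33 and 5.74 in uninephrectomized SBH/y arrays and between 5.17 and 5.30 with 2 kidneys. Of 7 lymphatic endothelial markers 2 were higher, Mmrn1 by 0.59 ± 0.11 and Ccl21 itself, and 0 were lower. The other 5 had differences of 0.01 to 0.13 and were not called. In SBN/y limma called 0 of the 7, with Mmrn1 at 0.32 ± 0.11 (adjusted p = 0.265). The mean of the list without Ccl21, an alternative added after seeing the data, lay between 5.98 and 6.17 in uninephrectomized SBH/y arrays, against 5.80 to 5.95 with 2 kidneys. In SBN/y that mean lay between 5.65 and 5.88 after uninephrectomy, against 5.59 to 5.83 with 2 kidneys. Of 7 lymph node stroma markers, 6 of them dim in all groups, 1 was higher and 0 lower in SBH/y after uninephrectomy. The part of these cells in the Ccl19 and Ccl21 values was not tested.

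Ccl28 and Ccl27 are epithelial ligands of Ccr10, which guides lymphocytes to mucosa and skin. Ccl28 was dim in all groups, and uninephrectomy changed it in opposite directions in the 2 strains. It had 5.08, 5.25 and 5.47 in uninephrectomized SBH/y rats, against 5.49, 5.58 and 5.71 with 2 kidneys, with no overlap between these groups. In SBN/y it had 5.44, 5.56 and 5.79 after uninephrectomy, against 5.07, 5.25 and 5.48 with 2 kidneys, overlapping only at the edge. Ccl28 fell by 0.34 on the log2 scale in SBH/y (SE 0.07, limma adjusted p = 0.00153) and rose by 0.32 ± 0.07 in SBN/y (adjusted p = 0.0286). The difference between the changes was -0.66 ± 0.10 (adjusted p = 0.000741). The SBN/y call was lost, at 0.29 to 0.32 with an adjusted p of 0.0512 to 0.0796, without uninephrectomized replicate 1, 3, 5 or 7 or replicate 2, 3, 6 or 7 with 2 kidneys. The difference between strains kept its call without any 1 of the 28 arrays.

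Ccl27 had 5.86, 6.17 and 6.40 in uninephrectomized SBH/y rats, against 6.19, 6.37 and 6.73 with 2 kidneys, and fell by 0.25 (SE 0.07, limma adjusted p = 0.0271). Its RefSeq gene overlaps Il11ra1, and signal from that gene was not told apart. Their receptor Ccr10 had differences of -0.10 in SBH/y (adjusted p = 0.459) and -0.11 in SBN/y (adjusted p = 0.716). The Ccl27 call was lost without uninephrectomized replicate 4, 6 or 7 or replicate 1 or 4 with 2 kidneys, at -0.25 to -0.20. Ccr10 is carried by plasma cells. Of 10 B and plasma cell markers, 6 of them dim in all groups, 4 were higher and 0 lower in SBH/y after uninephrectomy. Jchain, the joining chain of secreted antibodies, rose by 1.19 ± 0.13 there. In SBN/y limma called 0 of the 10, with 3 at an unadjusted p under 0.05. The part of these cells in the values of Ccl27, Ccl28 and Cxcl13 was not tested.

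Cxcl13 attracts B cells through Cxcr5 and organizes lymphoid follicles. It had 5.62, 5.88 and 6.12 in uninephrectomized SBH/y rats, against 5.84, 6.12 and 6.88 with 2 kidneys, and fell by 0.46 (SE 0.14, limma adjusted p = 0.0367). In SBN/y the difference was -0.28 ± 0.14 (adjusted p = 0.591). The SBH/y call was lost without uninephrectomized replicate 4, 5, 6 or 7 or replicate 3, 5 or 6 with 2 kidneys, at -0.47 to -0.37. Cxcr5 had a difference of 0.09 ± 0.08 in SBH/y (adjusted p = 0.577). Its other probe set, with a mean of 5.19 against 7.45, was not called either.

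Cx3cl1 had 8.57, 8.69 and 8.83 in uninephrectomized SBH/y rats, against 8.74, 8.82 and 8.92 with 2 kidneys. In SBN/y it had 8.23, 8.40 and 8.46 after uninephrectomy, against 8.50, 8.54 and 8.60 with 2 kidneys, and these groups did not overlap (0.409% of all probe sets did so). It fell by 0.14 in SBH/y (SE 0.04, limma adjusted p = 0.0451), and in SBN/y the change was -0.17 ± 0.04 (adjusted p = 0.0919). The difference between the strains' changes was 0.03, with a 95% interval of -0.10 to 0.15. The SBH/y call was lost when 1 of 15 arrays was left out, at -0.15 to -0.12: uninephrectomized SBH/y replicates 3 to 7, SBH/y replicates 2 to 6 with 2 kidneys, uninephrectomized SBN/y replicates 1, 6 and 7, and SBN/y replicates 5 and 7 with 2 kidneys. Its receptor Cx3cr1, carried by monocytes and kidney macrophages, was dim, with a difference of -0.01 in SBH/y and a 95% interval of -0.19 to 0.17.

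Cxcl16 had 9.998, 10.11 and 10.26 in uninephrectomized SBH/y rats, against 9.954, 9.997 and 10.08 with 2 kidneys. In SBN/y it had 9.46, 9.62 and 9.68, against 9.59, 9.80 and 9.86 with 2 kidneys. Neither change was called alone, at 0.11 ± 0.05 in SBH/y (limma adjusted p = 0.154) and -0.17 ± 0.05 in SBN/y (adjusted p = 0.0996), but they differed by 0.28 ± 0.07 (adjusted p = 0.0226). The SBN/y value passed without SBN/y replicate 1 with 2 kidneys, at -0.20 (adjusted p = 0.0287). The RefSeq gene of Cxcl16 overlaps Zmynd15, and those of Cxcl10 and Cxcl11 overlap Art3.

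Of the receptors, Ackr3 had 7.87, 8.06 and 8.47 in uninephrectomized SBH/y rats, against 8.09, 8.45 and 8.53 with 2 kidneys. It fell by 0.31 (SE 0.09, limma adjusted p = 0.0287), and the difference in SBN/y was 0.06 ± 0.09 (adjusted p = 0.938). The strains' changes differed by -0.38 ± 0.13 (adjusted p = 0.168), and this passed without uninephrectomized SBH/y replicate 2, at -0.44 (adjusted p = 0.0404). The call was lost without uninephrectomized replicate 4, 6 or 7 or replicate 3, 4, 5 or 7 with 2 kidneys, at -0.30 to -0.28. Ccr1, a receptor of monocytes and neutrophils, was dim and rose by 0.26 ± 0.07 in SBH/y (adjusted p = 0.0228). That call was lost without uninephrectomized replicate 6 or 7 or replicate 1 or 7 with 2 kidneys, at 0.23 to 0.25. Cxcr4 had differences of 0.16 ± 0.11 in SBH/y and 0.25 ± 0.11 in SBN/y, not called in either. For Cxcl12 the brightest probe set had a difference of 0.10 ± 0.05 in SBH/y (adjusted p = 0.313). Another of its 3 probe sets, with a mean of 10.05, was called there at 0.23 (adjusted p = 0.00979), so the call for Cxcl12 depends on the probe set.

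The classic monocyte and neutrophil ligands were not called after uninephrectomy in either strain. Ccl2, the main ligand of Ccr2 on monocytes, had 6.46, 6.71 and 7.24 in uninephrectomized SBH/y rats, against 6.49, 6.87 and 7.37 with 2 kidneys, a difference of -0.20 with a 95% interval of -0.62 to 0.23. In SBN/y it had 5.80, 6.23 and 6.80 after uninephrectomy, against 6.52, 6.90 and 8.42 with 2 kidneys, a difference of -0.75 ± 0.21 (limma adjusted p = 0.109). Ccl5, which attracts T cells and macrophages, had a difference of -0.03 in SBH/y, with an interval of -0.23 to 0.17. Of the Cxcr2 ligands Cxcl1, Cxcl2, Cxcl3 and Cxcl6, which attract neutrophils, limma called 0 of 4 in any comparison. In SBN/y after uninephrectomy 2 of them had an unadjusted p under 0.05. Cxcl3 was not dim, by its brightest probe set only, and the other 3 were dim in all groups. Neutrophil markers were dim too, in 6 of 6 measured cases. In SBH/y after uninephrectomy 1 of the 6 was higher, Camp at 0.25 ± 0.07 (limma adjusted p = 0.0231), and 1 lower, the calgranulin gene S100a9 at -1.11 ± 0.27 (adjusted p = 0.00827). In SBN/y limma called 0 of the 6, with 0 at an unadjusted p under 0.05.

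Replicate 2 of the SBN/y rats with 2 kidneys stood apart for Ccl2, Cxcl1 and Ccl20. It had 8.42 for Ccl2, with the next array of its group at 7.20. It had 5.66 for Cxcl1, with the next at 4.15, and 5.49 for Ccl20, a ligand of Ccr6 that attracts dendritic cells and lymphocytes, with the next at 4.28. This array was the highest of its group in 12 of the 45 members, these 3 included, and in 17.4% of all probe sets. Among 30 genes of the NF-kappa B pathway and its targets it was the highest in 14, or 46.7%. Other arrays led their groups in up to 17 members, as SBH/y replicate 6 with 2 kidneys did, with 26.2% of all probe sets. That SBH/y array led in 10 of the 30 NF-kappa B genes, or 33.3%. Without SBN/y replicate 2 with 2 kidneys the SBN/y difference of Ccl2 after uninephrectomy was -0.52 ± 0.16 (limma adjusted p = 0.193). The strain difference after uninephrectomy, which does not contain this array but shares its fitted spread, was 0.44 for Ccl2 and passed without it (adjusted p = 0.0352, against 0.142 with it). Ccl20 likewise passed at 0.22 (adjusted p = 0.0352, against 0.307 with it).

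**Figure D3:**
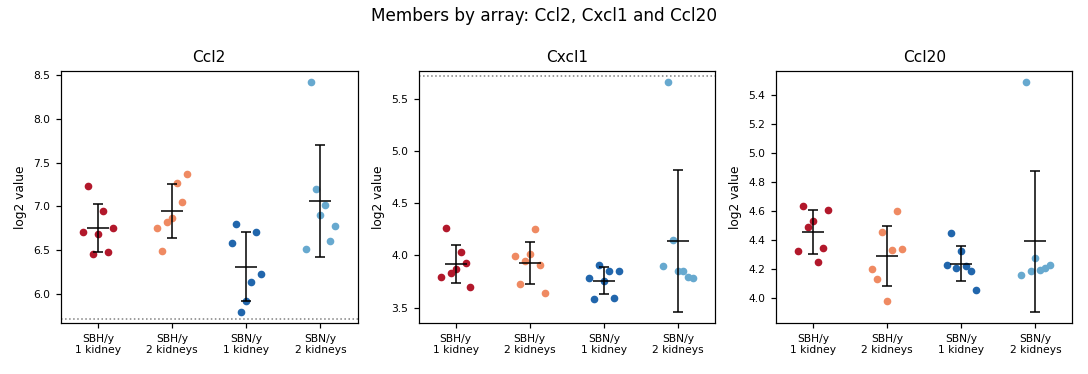
Log2 values of Ccl2, Cxcl1 and Ccl20 on each array (points, 7 per group), with group mean and SD in black. In SBN/y rats with 2 kidneys 1 array, replicate 2, lies at 8.42, 5.66 and 5.49, above every other array for all 3 genes.

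In all, 26 of the 45 members were called in no comparison by their brightest probe set, 20 of them dim in all groups. They were Ccl2, Ccl3, Ccl5, Ccl7, Ccl9, Ccl11, Ccl17, Ccl20, Ccl22, Cxcl1, Cxcl2, Cxcl3, Cxcl6, Cxcl12, Ccr3, Ccr4, Ccr6, Ccr10, Cx3cr1, Cxcr1, Cxcr2, Cxcr4, Cxcr5, Ackr1, Ackr2 and Ackr4. Their changes after uninephrectomy lay between -0.20 and 0.20 in SBH/y and between -0.75 and 0.25 in SBN/y. The Cxcl12 probe set with a mean of 10.05 was also called higher in SBH/y than SBN/y after uninephrectomy, at 0.31 (limma adjusted p = 0.000126). The brightest Cxcl12 probe set had 0.15 there and did not pass (adjusted p = 0.0552), though it did under some alternatives, such as median centring (adjusted p = 0.04).

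The second comparison asked how the strains differed with the same number of kidneys. After uninephrectomy 14 of 45 members, 31.1%, were called between SBH/y and SBN/y, against 21.5% of all probe sets. Of these 11 were higher in SBH/y (24.4% of members, 11.1% of probe sets) and 3 lower (6.67% and 10.3%). With 2 kidneys 11 of 45, 24.4%, were called, against 17.9% of all probe sets, 7 higher (15.6% and 9.64%) and 4 lower (8.89% and 8.31%). The 9 members called in both were Ccl6, Cxcl9, Cxcl11, Cxcl16, Cx3cl1, Xcl1, Cxcl13, Cxcl14 and Ccl28, of which 8 had the same direction and Ccl28 the opposite one. These 9 were 64.3% of the first list and 81.8% of the second. The matching shares over all probe sets were not counted, so this overlap cannot be read as a trait of the members. These 2 comparisons share no arrays, but both share arrays with the uninephrectomy effects. A base that differs between the strains within a probe would also shift its signal, and this was not tested. Without uninephrectomized SBH/y replicate 2 the lower members after uninephrectomy were 5, and without SBH/y replicate 6 those with 2 kidneys were 7.

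**Figure D4:**
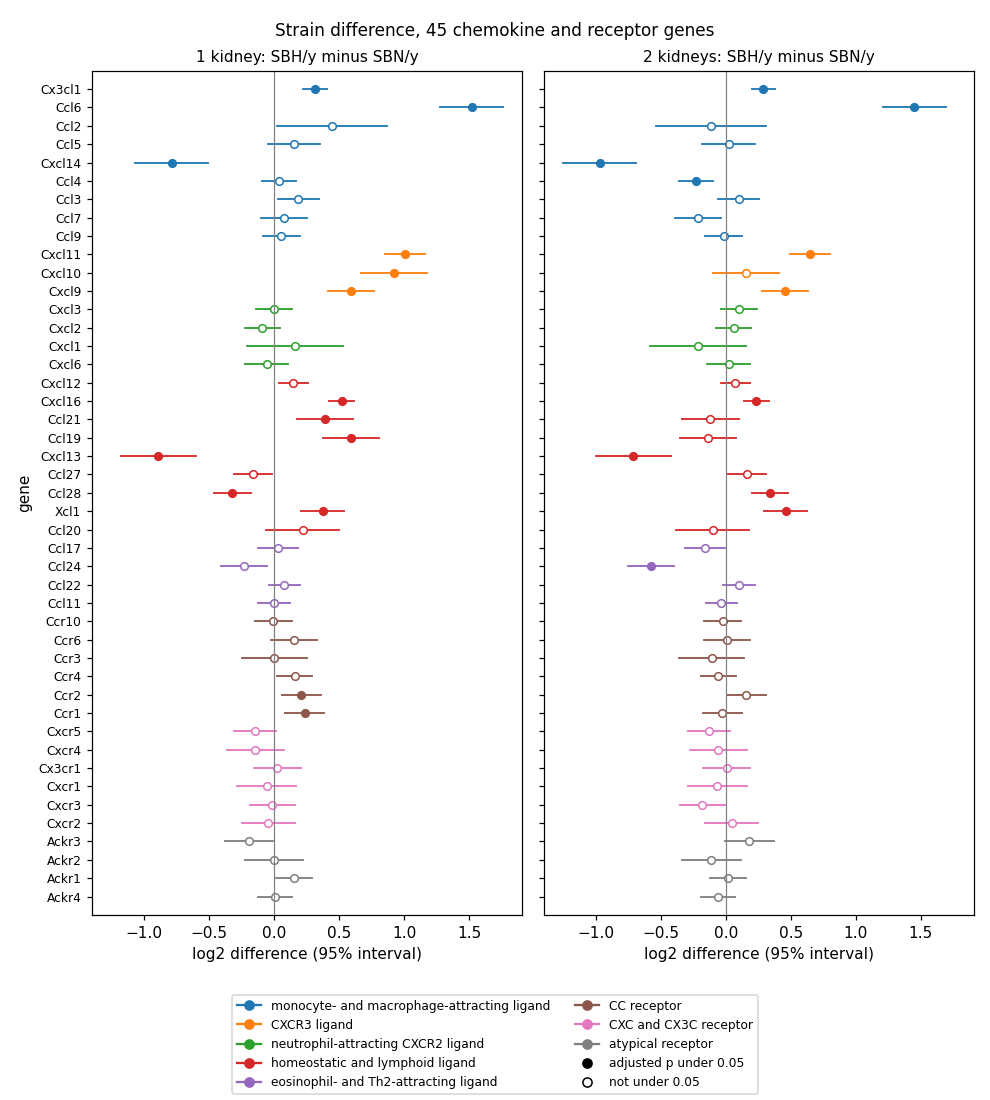
Log2 difference between SBH/y and SBN/y rats for the 45 genes, after uninephrectomy on the left and with 2 kidneys on the right, with 95% intervals from limma. Filled points have an adjusted p under 0.05. Ccl6 lies farthest to the right in both panels, at 1.52 and 1.45, and Cxcl14 and Cxcl13 lie to the left in both.

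Ccl6, a ligand made by macrophages and other myeloid cells in rodents, had the largest difference of the 45. It had 7.53, 7.79 and 7.97 in uninephrectomized SBH/y rats, against 6.09, 6.22 and 6.46 in uninephrectomized SBN/y rats, with no overlap. With 2 kidneys it had 7.13, 7.73 and 7.95 in SBH/y rats, against 5.82, 6.11 and 6.60 in SBN/y rats, again with no overlap. The differences were 1.52 ± 0.12, or 2.86-fold (limma adjusted p = 1.41e-11), and 1.45 ± 0.12, or 2.73-fold (adjusted p = 4.25e-11). The differences after uninephrectomy were 0.14 ± 0.12 in SBH/y and 0.07 ± 0.12 in SBN/y, not called. In these comparisons 9.15% and 6.82% of all probe sets did not overlap between strains, and 7 and 9 of the 45 members did so. Ccl9, another CC ligand of myeloid cells, was dim and differed by 0.05 and -0.02, not called.

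Macrophage and monocyte markers were also higher in SBH/y, in 16 of 22 cases and lower in 2 after uninephrectomy, and in 13 and 2 with 2 kidneys. The mean of the list lay between 7.02 and 7.36 in uninephrectomized SBH/y arrays, against 6.69 to 6.85 in uninephrectomized SBN/y arrays. With 2 kidneys it lay between 6.96 and 7.29 in SBH/y, against 6.64 to 6.93 in SBN/y. Itgax, an integrin of macrophages and dendritic cells, differed by 1.18 ± 0.08 after uninephrectomy and the lysozyme gene Lyz2 by 0.93 ± 0.07. The 2 lower markers, named after their values were seen, were the scavenger receptors Cd163 and Mrc1 in both comparisons. The part of macrophages in the Ccl6 values was not tested.

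Of the 3 interferon-induced ligands, Cxcl11 and Cxcl9 were higher in SBH/y with 2 kidneys as well as after uninephrectomy. Cxcl11 differed there by 0.65 ± 0.08, or 1.57-fold (limma adjusted p = 9.69e-08), and after uninephrectomy by 1.004 ± 0.08, or 2.01-fold (adjusted p = 8.52e-12). Cxcl9 had 4.80, 5.17 and 5.42 in uninephrectomized SBH/y rats, against 4.33, 4.50 and 5.04 in uninephrectomized SBN/y rats. With 2 kidneys it had 4.82, 4.89 and 5.10 in SBH/y, against 4.34, 4.50 and 4.60 in SBN/y, with no overlap. It differed by 0.59 ± 0.09 (adjusted p = 3.98e-06) and 0.45 ± 0.09 (adjusted p = 0.00025), and its second probe set was called in the same direction at 0.46 and 0.31. Cxcl10 was called after uninephrectomy, at 0.92 ± 0.12 (adjusted p = 8.13e-07), and not with 2 kidneys, at 0.15 ± 0.12 (adjusted p = 0.448). The test of that difference is the one given above for the strains' changes.

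**Figure D5:**
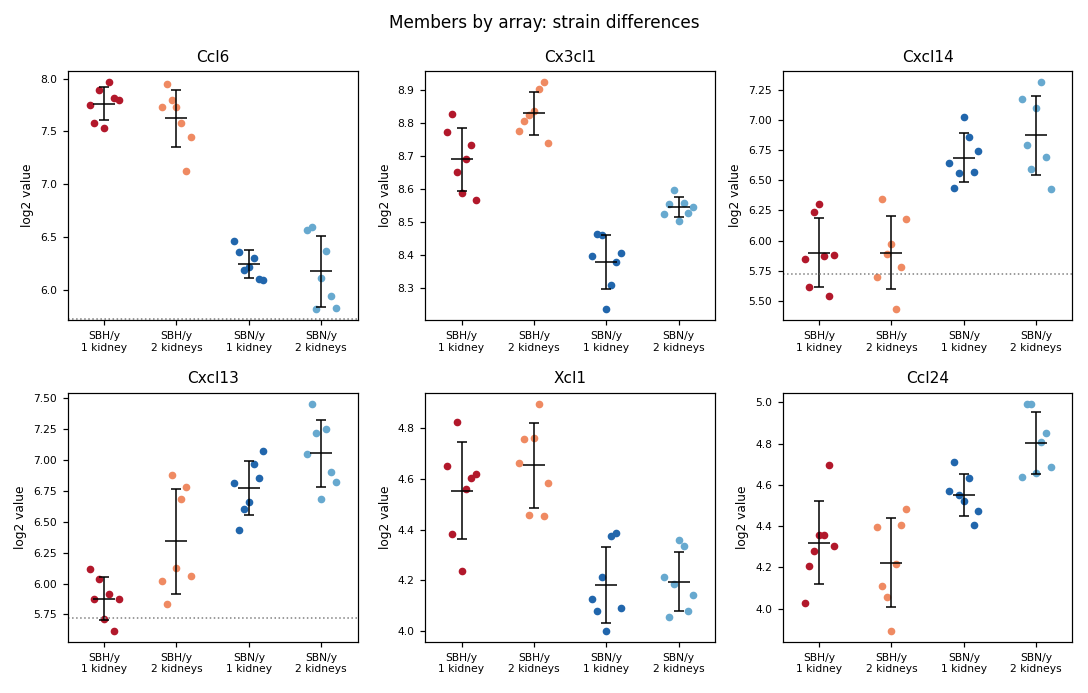
Log2 values on each array (points, 7 per group) of 6 genes that differed between the strains, with group mean and SD in black and the lowest array median of 5.72 dotted where in range. Ccl6, Cx3cl1 and Xcl1 are higher in both SBH/y groups, and Cxcl14 and Cxcl13 have the higher means in both SBN/y groups.

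Interferon response genes moved in the same direction, with 21 of 29 higher and 0 lower after uninephrectomy and 15 and 0 with 2 kidneys. Over all probe sets 11.1% and 9.64% were higher in these 2 comparisons. Ifi27 differed by 1.502 ± 0.07 after uninephrectomy and the transcription factor Irf1 by 0.65 ± 0.08. In the uninephrectomy effect of SBH/y, however, 5 of the 29 were higher and 1 lower, and in that of SBN/y limma called 0, with 1 at an unadjusted p under 0.05. Of the NF-kappa B pathway and its targets, 12 of 30 were higher and 0 lower in SBH/y after uninephrectomy, and 9 and 1 with 2 kidneys. Examples are Nfkb1 at 0.44 ± 0.04 and the adhesion molecule Icam1 at 0.47 ± 0.06 after uninephrectomy.

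Cxcl16 was higher in SBH/y by 0.52 ± 0.05 after uninephrectomy (limma adjusted p = 3.72e-10) and by 0.23 ± 0.05 with 2 kidneys (adjusted p = 0.000407), with no overlap between strains in either state. Cx3cl1 was higher by 0.31 ± 0.04 (adjusted p = 1.94e-06) and 0.29 ± 0.04 (adjusted p = 1.07e-05), also with no overlap. Its neighbours in the genome, Ccl17 and Ccl22, were not called. Xcl1 or lymphotactin, made by natural killer cells and T cells, was dim, with 4.24, 4.60 and 4.82 in uninephrectomized SBH/y rats, against 4.00, 4.13 and 4.38 in uninephrectomized SBN/y rats. It was higher by 0.37 ± 0.08 (adjusted p = 0.000739), and with 2 kidneys by 0.46 ± 0.08 (adjusted p = 7.39e-05). Natural killer cell markers were higher in 4 of 9 cases after uninephrectomy and in 2 of 9 with 2 kidneys, and lower in 0. Of 16 T cell markers 2 were higher and 0 lower after uninephrectomy. With 2 kidneys 2 were higher and 5 lower, the lower ones being Cd3d, Cd3e, Cd3g, Cd5 and Lck, named after their values were seen, and the median over the list was -0.18. The part of these cells in the Xcl1 values was not tested.

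Fewer members were lower in SBH/y. Cxcl14, an epithelial chemokine that attracts monocytes, had 5.54, 5.87 and 6.30 in uninephrectomized SBH/y rats, against 6.44, 6.64 and 7.02 in uninephrectomized SBN/y rats. With 2 kidneys it had 5.43, 5.89 and 6.35 in SBH/y rats, against 6.43, 6.79 and 7.32 in SBN/y rats, so the strains did not overlap in either state. The differences were -0.79 ± 0.14 (limma adjusted p = 5.45e-05) and -0.97 ± 0.14 (adjusted p = 3.11e-06). Its second, dim probe set was called with 2 kidneys at -0.33 (adjusted p = 0.00124) and not after uninephrectomy, at -0.05.

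Cxcl13 had 5.62, 5.88 and 6.12 in uninephrectomized SBH/y rats, against 6.44, 6.82 and 7.07 in uninephrectomized SBN/y rats, with no overlap. Its strain difference was -0.89 ± 0.14 after uninephrectomy (limma adjusted p = 1.09e-05). With 2 kidneys the difference was -0.71 ± 0.14 (adjusted p = 0.000344), with overlap. Ccl24, an eosinophil ligand of Ccr3 and dim here, had 3.89, 4.22 and 4.48 in SBH/y rats with 2 kidneys, against 4.64, 4.81 and 4.99 in SBN/y rats. It differed by -0.58 ± 0.09 (adjusted p = 7.35e-06), and after uninephrectomy the difference was -0.23 ± 0.09 (adjusted p = 0.0552), which passed at -0.23 to -0.30 without uninephrectomized SBH/y replicate 6, SBH/y replicate 4 or 7 with 2 kidneys, or uninephrectomized SBN/y replicate 6. Mast cell and eosinophil markers were dim in 10 of 10 cases and called in 0 by limma between the strains, with 0 at an unadjusted p under 0.05. Ccl4 had 5.89, 6.04 and 6.30 in SBH/y rats with 2 kidneys, against 6.05, 6.29 and 6.48 in SBN/y rats, a difference of -0.23 ± 0.06 (adjusted p = 0.0112).

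The members called between the strains with 1 kidney and not with 2 were Ccl19, Ccl21, Ccr1, Ccr2 and Cxcl10. Of these the test of the difference itself passed for Ccl19 and Cxcl10. Ccl19 was higher in uninephrectomized SBH/y rats by 0.59 ± 0.10 (limma adjusted p = 6.69e-05) and Ccl21 by 0.39 ± 0.11 (adjusted p = 0.00698). With 2 kidneys the differences were -0.14 and -0.12, not called. The monocyte receptors were dim, with Ccr1 higher by 0.23 ± 0.07 (adjusted p = 0.0192) and Ccr2 by 0.21 ± 0.07 (adjusted p = 0.0436). The Ccr1 call was lost without uninephrectomized SBN/y replicate 1 or 6, at 0.20. The Ccr2 call was lost without uninephrectomized SBH/y replicate 1, 4, 6 or 7 or uninephrectomized SBN/y replicate 1, 2, 3, 4, 5 or 7, at 0.17 to 0.21. Ccl28 was lower in SBH/y after uninephrectomy, at -0.32 ± 0.07 (adjusted p = 0.000673), and higher with 2 kidneys, at 0.34 ± 0.07 (adjusted p = 0.000545).

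Downstream of the receptors, genes of chemokine receptor signalling were higher in SBH/y in 14 of 28 cases and lower in 2 after uninephrectomy, and in 5 and 2 with 2 kidneys. Rac2, the small GTPase of leukocyte movement, differed by 0.66 ± 0.07 and the integrin chain Itgb2 by 0.58 ± 0.09 after uninephrectomy. Stat3 went the other way, at -1.02 ± 0.07 and -1.06 ± 0.07 with 2 kidneys. After uninephrectomy in SBH/y 6 of the 28 rose and 1 fell, with Rgs16, which shortens G protein signals, at 0.39 ± 0.09. Over all probe sets 3.33% rose and 4.91% fell there. In SBN/y limma called 0 of the 28, with 1 at an unadjusted p under 0.05.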

How the data were processed

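Total RNA of whole kidneys was hybridized to Affymetrix arrays. The log2 values were made by the authors with GCOS and RMA (versions not given in the sources used here), as the labels name the tools per the submitters' processing notes, and were used as deposited. Range, array medians and correlations were checked, and 57 control probe sets were left out. Symbols came from the platform annotation, which gives 1 symbol for 20826 probe sets, several for 436 and none for 9780, and 20758 of the first were matched to RefSeq by gene identifier. All 28 arrays entered 1 limma fit (limma 3.58.1, R 4.3.3) of 4 group means with empirical Bayes variances, and 5 contrasts were taken, each adjusted by the Benjamini-Hochberg method over 31042 probe sets. The fit was tested on simulated data. Every member was named, with values by group for those called. From each other gene list up to 4 genes of smallest p were named, except where stated. The members and lists were chosen with earlier results of these data known. Alternatives were 10 other settings and leaving out each array in turn. Same-numbered arrays of 2 groups had median correlations of their deviations of 0.04 to 0.23, with 3 to 5 of 7 pairs over 0.1, so the numbers were not taken as pairs. The number of arrays limits the precision. Array scan dates were not used here. Some items are not reported here.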

Additional observations from a re-analysis of the deposited data

Results flagged for a closer look

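Among 180 sets of 7 arrays (45 members in 4 groups), 13 held an array whose gap to the next, divided by the range, was above Dixon's 95% critical value. Chance flags about 1 in 20 such sets. In SBN/y rats with 2 kidneys, replicate 2 was far above the others for Ccl2 (ratio 0.642), Ccl20 (0.91) and Cxcl1 (0.803). In the same group Ccr10 stood high in replicate 3 (0.642) and Cxcl3 in replicate 4 (0.654). In uninephrectomized SBH/y rats, replicate 2 was far below the others for Ccl21 (0.67) and Cxcl12 (0.73), while Cxcl6 was high in replicate 6 (0.598) and Cxcr1 in replicate 7 (0.628). In SBH/y rats with 2 kidneys Ccl3 was high in replicate 3 (0.569) and Ccr4 low in replicate 4 (0.669). In uninephrectomized SBN/y rats Cxcl9 was high in replicate 7 (0.65) and Ccr3 low in replicate 1 (0.638).

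The uninephrectomy effect differed between the strains for 4 members by limma's test of the difference, SBH/y minus SBN/y. The log2 differences were 0.77 for Cxcl10, 0.73 for Ccl19, 0.28 for Cxcl16 and -0.66 for Ccl28.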

How the results depend on the processing

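Of 41 gene calls over the 5 comparisons, 30 were kept under every alternative run and 33 when any 1 array was left out, and 0 reversed direction. At an adjusted p under 0.01, 11 were lost. Counts moved by over 1.5 times as follows, and the cause was not tested. The 5 members lower after uninephrectomy in SBH/y were 2 with only the groups compared in the fit and 1 at an adjusted p under 0.01. The 1 higher in SBN/y was 0 under both of these. The 0 lower in SBN/y became 1 without the dimmest 40% of probe sets (Cx3cl1), 1 with trended and robust variances and 1 with array weights (Cxcl16 in both). Array weights raised the members with a more negative change in SBH/y to 3, those lower in SBH/y after uninephrectomy to 5 and with 2 kidneys to 7. Members with a more positive change were 1 at an adjusted p under 0.01. The replicate numbers were not taken as pairs, since not every same-numbered pair had a correlation over 0.1, although same-numbered arrays had median correlations of 0.04 to 0.23 in the 6 pairs of groups, against -0.05 to -0.02 for other numbers. With the replicate number as a block 0 calls were lost, while members with a more positive change in SBH/y became 5 by adding Ccl21 (adjusted p = 0.0418) and Cxcl11 (adjusted p = 0.04998). The block also added Cxcl12 after uninephrectomy and Ccl17 with 2 kidneys, and changed no other call. In a pair of groups 3 to 9 of 14 arrays correlated best with their own number, a hint from the data and not from the design. Leaving out 1 array gave 5 to 7 higher and 1 to 5 lower after uninephrectomy in SBH/y, 0 to 1 higher and 0 to 1 lower in SBN/y, and 3 to 5 more positive and 1 to 3 more negative changes. It gave 9 to 13 higher and 3 to 5 lower between the strains after uninephrectomy, and 7 higher and 4 to 7 lower with 2 kidneys. Dim signal also limits the list: without the dimmest 40% of probe sets 22 of the 45 members were left.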

Other observations

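Genes close to the chemokines whose symbols fall outside the naming rule were measured for 14 of 22 listed. After uninephrectomy in SBH/y 4 of them were higher and 2 lower. Rarres2, which encodes the leukocyte attractant chemerin, rose by 0.41 ± 0.07 (limma adjusted p = 0.00013). Pf4, the platelet CXC chemokine, rose by 0.38 ± 0.11 (adjusted p = 0.0271). Ccrl2, a receptor that presents chemerin, fell by 0.35 (SE 0.07, adjusted p = 0.00148), and Cmtm6 fell by 0.17 (SE 0.05, adjusted p = 0.0225). In SBN/y limma called 0 of the 14, with 3 at an unadjusted p under 0.05. Between the strains after uninephrectomy C5ar1, the receptor of complement C5a, was higher in SBH/y by 0.34 ± 0.06 (adjusted p = 0.000124), and Pf4 was lower, at -0.48 ± 0.11 (adjusted p = 0.00143).

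Of 39 cytokines and cytokine receptors other than chemokines, 6 rose and 0 fell after uninephrectomy in SBH/y. Spp1, which encodes osteopontin, rose by 0.86 ± 0.10 (limma adjusted p = 7.34e-07), and Csf1r, the receptor that macrophages depend on, rose by 0.33 ± 0.06 (adjusted p = 0.00111). Of 21 genes of leukocyte adhesion 3 were higher and 0 lower, with Cd44 at 0.50 ± 0.08 (adjusted p = 8.19e-05). In the same comparison limma called 4 of 13 kidney markers, and 3 of these rose. The only kidney marker called lower was the podocyte gene Nphs1, which fell by 0.62 (SE 0.10, adjusted p = 8.55e-05). The median change over the 13 was -0.007. Limma called 2 of 12 endothelial markers, Emcn and Kdr, both lower, with Kdr falling by 0.31 (SE 0.05, adjusted p = 0.000238).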
